A study of Arabidopsis thaliana with 12 samples.

Results

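The class III peroxidases of Arabidopsis thaliana are a large family of secreted haem enzymes, and their transcripts were followed here in seedlings treated with Rose Bengal. Members were taken from a list of 60 gene identifiers of the family, with no measured value in the rule, and 48 of the 60 were among the 13307 genes of the count table. The other 12 (AT1G05250, AT1G24110, AT1G34510, AT2G18140, AT2G22420, AT2G35380, PRXCA or AT3G49110, AT4G08780, AT4G17690, PA2 or AT5G06720, AT5G06730, and RHS18 or AT5G22410) were not analysed here. Samples were whole seedlings of wild type Col-0, 2 weeks old, moved from water into 0, 10, 100 or 400 µM Rose Bengal (RB) and kept in the light for 2 h. Under light this dye turns oxygen into its singlet form, and in the labels the groups differ by RB dose alone. Each dose had 3 libraries, 12 in all, made by MARS-seq, a method that samples polyadenylated RNA at its 3′ end. The study's methods for RNA extraction give 3 biological replicates a treatment, each a pool of whole seedlings, and the p-values measure the spread between such pools if this holds for the sequenced samples, for which the labels give a replicate number alone. Libraries are named by their replicate number and dose, as library 2 at 100 µM. RB is the treatment in the labels, which were followed, although the study in its listing of sources puts DCMU, an inhibitor of photosynthesis, at this series.

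Class III peroxidases are exported to the cell wall and vacuole, where they use hydrogen peroxide to oxidise phenolic compounds. In the wall this couples monolignols into lignin and cross-links wall proteins, which stiffens the wall, while in another reaction cycle the same enzymes make reactive oxygen species that loosen it. Many members are expressed in roots, where some act in root hair growth and others in the lignin of the Casparian strip, the wall barrier of the endodermis, and some take part in the oxidative burst of defence.

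Library totals ran from 1499791 to 3608636 reads, and 1 read was worth 0.262 to 0.615 CPM (reads of a gene relative to its library total, scaled by TMM factors). Replicates of a dose differed by more than counting error (chi-square per gene of 3.79 to 12.6). In an earlier look at these data library 1 at 10 µM, library 1 at 100 µM, and library 2 at 400 µM stood apart, and counts without these 3 are given beside the main ones. Markers of the shoot, such as the small subunit of Rubisco, summed to 26100 to 26900 CPM in untreated seedlings, 20600 to 23700 at 10 µM, 19700 to 22300 at 100 µM and 21200 to 27300 at 400 µM, with 5 of 5 present. The sums at 10 and 100 µM lay below the untreated range and that at 400 µM overlapped it. Of the 5, LHCB2.1, a light-harvesting protein, was called lower at each dose (log2 fold changes -0.55, -0.68 and -0.73) and RBCS1A at 100 µM (-0.45), and their part in the falls of the peroxidases was not tested. Markers of root hairs and the endodermis were also present in untreated seedlings, with 6 of 7 and 3 of 5 in the table, so whole seedlings were represented as labelled.

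The comparison of each dose with untreated seedlings asks which peroxidases rose and which fell. Falling members outnumbered rising ones at each dose. At 10 µM, 8 of 48 members were called lower (16.7%, against 1.07% of all genes) and 0 were called higher (2.66% of all genes), in edgeR's quasi-likelihood test at a Benjamini-Hochberg adjusted p under 0.05. The 0 stood beside 1 member higher at an unadjusted p under 0.05 and 0 called higher by DESeq2, and without library 1 at 100 µM the count was 1 (AT5G39580). At 100 µM, 16 were lower (33.3%, against 4.22% of all genes) and 2 higher (4.17%, against 7.32%). At 400 µM, 21 were lower (43.8%, against 6.43%) and 3 higher (6.25%, against 9.11%). The share of members called lower was thus above the background at each dose, while the few calls of higher members lay near theirs. Without the 3 libraries that stood apart, 10, 18 and 22 were lower at the 3 doses, and 0, 2 and 2 higher.

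In all, 21 members fell and 3 rose at some dose, and the other 24 were not called at any dose against 0 µM. The falling members were 8 that were lower at all 3 doses, 8 at 100 and 400 µM, and 5 at 400 µM. The shares of all genes with these patterns of calls were not counted. The median log2 fold change of the 48 members was -0.30, -0.49 and -1.01 at 10, 100 and 400 µM, against 0.02, -0.04 and -0.04 over all genes. Group means fell at each step of dose in 19 members (39.6%, against 9.45% of all genes) and rose at each step in 5 (10.4%, against 9.96%). An F test over the 4 doses called 23 members, where 14.6% of all genes were called. The treated libraries lay all below the untreated ones in 19 members at 10 µM (39.6%, against 9.7% of all genes) and 21 at 100 µM (43.8%, against 13.4%), and all above them in 0 (against 10.4%) and 3 (6.25%, against 14%). At 400 µM they lay all below the untreated ones in 29 members (60.4%, against 17% of all genes), all above them in 5 (10.4%, against 17.4%), and overlapped with them in 14. The plot of log2 fold changes by dose shows the order of the members.

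**Figure D1:**
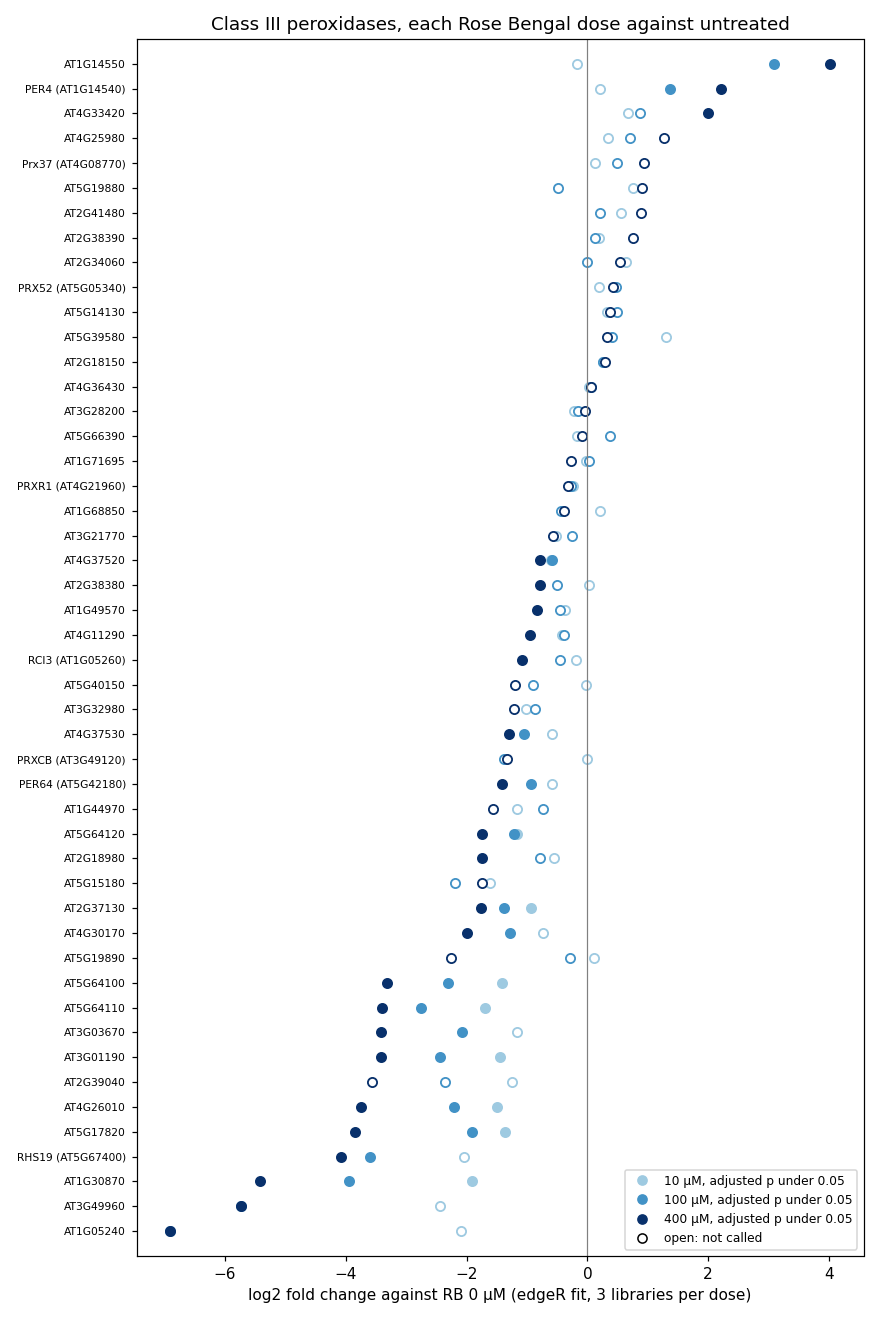
Log2 fold change of each of the 48 class III peroxidases against RB 0 µM (x axis) at 10, 100 and 400 µM (light to dark points, 3 libraries per dose), ordered by the value at 400 µM. Filled points have a Benjamini-Hochberg adjusted p under 0.05 in edgeR's quasi-likelihood test. At 400 µM 21 filled points lie left of 0 and 3 right of it, and the fitted values of AT1G05240 and AT3G49960 at 100 and 400 µM rest on groups with 0 reads.

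Low counts bear on these numbers, since the table holds only genes with more than 5 reads in some sample. Of the 48 members, 34 had such a library at each of the 4 doses, 3 (AT3G49960, AT2G39040 and AT5G15180) had one among the untreated libraries alone, and 5 (AT1G05240, RHS19, AT1G44970, AT3G21770 and AT5G19890) at 0 and 10 µM alone. These 8 entered the table through the doses where they were high, which partly fixes their direction at 400 µM, and AT3G49960, AT1G05240 and RHS19 are among the 21 called lower. On the rising side AT4G33420, called higher at 400 µM, had a library with more than 5 reads at 10, 100 and 400 µM but not untreated. A mean of 10 CPM in some dose group was reached by 31 members. At 400 µM 18 of these fell (58.1%, against 6.43% of all genes) and 2 rose (6.45%, against 9.11%). Among the 17 below that level 3 fell (17.6%) and 1 rose (5.88%).

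The summed level of the family was lower in each treated library than in any untreated one, with no test made on it. The 48 members summed to 8291, 9604 and 11610 CPM in the untreated libraries, 5118, 6525 and 5389 at 10 µM, 4489, 4810 and 5877 at 100 µM, and 4555, 3633 and 4223 at 400 µM. The untreated mean was 1.73, 1.94 and 2.38 times the treated means. AT5G64120 alone made up much of the difference between the untreated libraries, and without it the ratios were 1.56, 1.81 and 2.09. The 6 members with most reads held 81% to 88.8% of the sum in each library, so it mainly follows them. These levels come from whole seedlings, in which fewer cells of a type and less RNA per cell cannot be told apart.

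**Figure D2:**
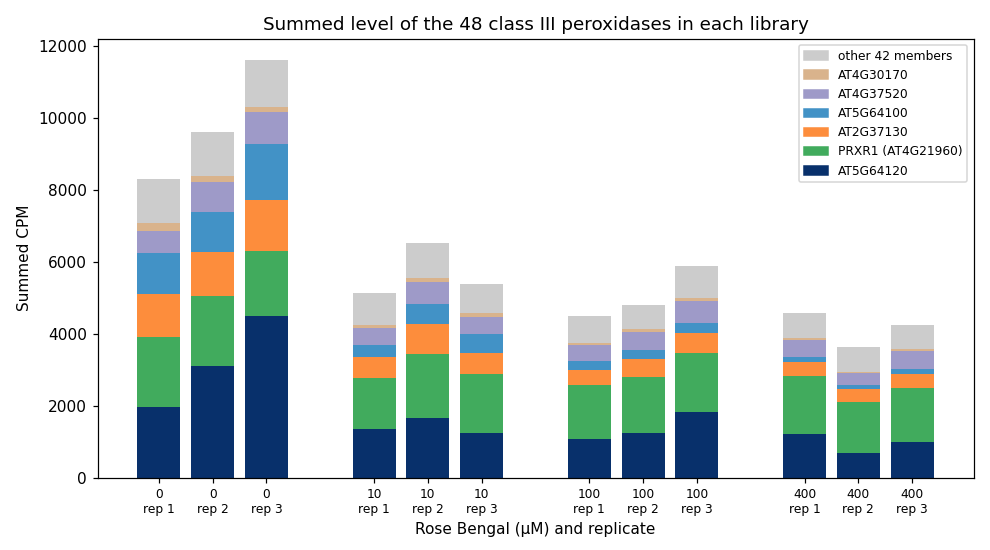
Summed CPM of the 48 class III peroxidases (y axis) in each of the 12 libraries (x axis, by Rose Bengal dose and replicate), stacked by the 6 members with most reads and the other 42. The untreated bars reach 8291 to 11610 CPM and those at 400 µM 3633 to 4555 CPM, while the PRXR1 segment changes little.

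A cluster of 3 neighbouring genes on chromosome 5, AT5G64100, AT5G64110 and AT5G64120, fell at all 3 doses. AT5G64100, which acts in root hair growth at low temperature, stood at 1150, 1110 and 1560 CPM at 0 µM, 338, 565 and 529 at 10 µM, 229, 262 and 285 at 100 µM, and 145, 107 and 129 at 400 µM. The 4 doses did not overlap for this gene, which had 9966 reads untreated and 788 at 400 µM. Its log2 fold changes were -1.42 (SE 0.18), -2.30 (SE 0.19) and -3.32 (SE 0.20) at the 3 doses, with adjusted p of 5.44e-05, 4.95e-08 and 5.43e-10 in edgeR's quasi-likelihood test. AT5G64110 was read less, at 84, 81.7 and 89.4 CPM at 0 µM, 27.8, 27 and 23.4 at 10 µM, 6.44, 11.5 and 20.5 at 100 µM, and 11, 7.33 and 5.93 at 400 µM. No treated library reached the untreated range. The log2 fold changes of AT5G64110 were -1.69 (SE 0.25), -2.76 (SE 0.28) and -3.40 (SE 0.30), with adjusted p of 0.000259, 7.43e-07 and 9.25e-08.

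AT5G64120 (PRX71), which acts in the cell wall and in defence and was the member with most reads, stood at 1970, 3100 and 4490 CPM at 0 µM, 1350, 1650 and 1240 at 10 µM, 1070, 1230 and 1830 at 100 µM, and 1200, 678 and 991 at 400 µM. Its untreated libraries differed among themselves more than 2-fold, yet each lay above each treated one. The log2 fold changes were -1.17 (SE 0.25), -1.21 (SE 0.25) and -1.74 (SE 0.26), with adjusted p of 0.00961, 0.00282 and 6.96e-05. Without library 3 at 0 µM, the highest library, the call at 10 µM was lost (log2 fold change -0.84, adjusted p = 0.0959), while those at 100 and 400 µM held without any one library. Between AT5G64100 and AT5G64110 the coding sequences were 71.4% identical over 887 aligned bases, and no stretch of 50 bases or more in their last 300 bases matched another gene.

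The sequence upstream of AT5G64120 is shown because, with 3 W-boxes, it held the most of any called member (RefSeq, TAIR10.1, chr5:25661008-25661257, minus strand, the 250 bases before the annotated start). Capitals mark the W-box, TTGACC or TTGACT on either strand, the letters bound by WRKY factors of defence.
AT5G64120: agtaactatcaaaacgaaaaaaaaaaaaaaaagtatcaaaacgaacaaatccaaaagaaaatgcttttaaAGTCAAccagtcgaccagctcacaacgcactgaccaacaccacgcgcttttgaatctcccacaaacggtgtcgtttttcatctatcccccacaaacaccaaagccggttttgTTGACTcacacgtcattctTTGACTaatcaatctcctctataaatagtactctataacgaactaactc
The W-boxes begin 180, 68 and 49 bases upstream of the start. Over the family 13 of 48 members (27.1%) held at least 1, beside 28.2% of 13022 genes of the table.

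Peroxidases of root hairs were among the members with the largest falls. Of 5 members in the table with a known part in root hair growth, 4 fell at 100 and 400 µM (80%, against 4.22% and 6.43% of all genes). The other, AT5G39580, was not called. Of the 4, AT1G05240 and RHS19 entered the table through libraries at 0 and 10 µM alone, which partly sets their direction. AT4G26010, which acts in root hair elongation, stood at 53.3, 43.1 and 48.2 CPM at 0 µM, 12, 22.6 and 16 at 10 µM, 16.1, 8.51 and 5.73 at 100 µM, and 3.66, 2.62 and 4.23 at 400 µM. All treated libraries lay below the untreated ones, with log2 fold changes of -1.49 (SE 0.28), -2.20 (SE 0.30) and -3.74 (SE 0.35) and adjusted p of 0.00228, 2.76e-05 and 2.35e-07 in edgeR's quasi-likelihood test. RHS19 (AT5G67400), named as root hair specific, had 11.3, 7.91 and 8.25 CPM untreated, 2.11, 1.31 and 3.69 at 10 µM, 1.43, 0 and 0.477 at 100 µM and 0.523, 1.05 and 0 at 400 µM, which is 72 reads untreated and 3 at 400 µM. The 2 ranges did not overlap, and the ratio of untreated to 400 µM had a 95% counting interval of 6.15 to 92.8. RHS19 had log2 fold changes of -2.05 (SE 0.56), -3.59 (SE 0.68) and -4.09 (SE 0.74). The adjusted p was 0.0502 at 10 µM, just short of a call, and 0.00102 and 0.000543 at the higher doses. At 10 µM the gene was called without library 3 at 10 µM, library 1 or 2 at 100 µM, or library 3 at 400 µM (adjusted p = 0.0414, 0.026, 0.0324 and 0.0438). It was also called there with a stricter filter (0.0325) and in a fit of the compared groups alone (0.0134).

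AT1G05240, which also acts in root hair growth, had 0.807, 9.18 and 8.25 CPM in untreated seedlings and 0, 3.41 and 0 at 10 µM, and no read in any of the 6 libraries at 100 and 400 µM. Library 1 at 0 µM stood well below the other untreated ones and inside the range at 10 µM. It was at least 14.5-fold lower at 100 µM and at least 13-fold lower at 400 µM, with 3 counts a group taken as the floor. Its adjusted p was 0.0191 and 0.0179, and the first was lost without library 2 or 3 at 0 µM, or library 2 or 3 at 100 µM (0.0742, 0.0673, 0.0547 and 0.0548). That at 400 µM was lost without library 2 or 3 at 0 µM or any 1 of the 3 libraries at 400 µM (0.053 to 0.068), and in DESeq2 (0.321). The coding sequence of AT1G05240 is identical over its 978 bases to that of AT1G05250, which was not analysed here, so reads of the pair could be hard to assign.

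AT3G49960, whose coding sequence was 79.9% identical to that of RHS19, had 3.23, 2.22 and 2.6 CPM untreated and 0, 1.05 and 0 at 10 µM, then no read at 100 or 400 µM. It entered the table through the untreated libraries alone, so its direction is partly set by that minimum. Against the same floor it was at least 6.07-fold and at least 5.45-fold lower. The adjusted p in edgeR's quasi-likelihood test was 0.0253 and 0.024. At 100 µM the call was lost without any 1 of the 6 libraries compared (0.0528 to 0.0727), and at 400 µM without library 1 or 3 at 0 µM or any 1 of the 3 libraries at 400 µM (0.0564 to 0.0765). Both rest on 21 untreated reads in all.

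AT3G01190, annotated in hypocotyl and root, stood at 69.8, 72.5 and 64.7 CPM at 0 µM, 19.4, 28.3 and 28.3 at 10 µM, 10, 10 and 18.6 at 100 µM, and 4.18, 6.29 and 8.47 at 400 µM. Its treated libraries were all below the untreated ones, and those at 400 µM all below those at 10 µM. Log2 fold changes were -1.45 (SE 0.23), -2.43 (SE 0.25) and -3.42 (SE 0.28), with adjusted p of 0.000478, 8.99e-07 and 3.15e-08 in edgeR's quasi-likelihood test. It was the one member in the table with a root hair element in the 250 bases upstream, a motif found before genes of root hair cells. The motif was present in 2.08% of the 48 members and 0.776% of all genes. The outer 150 bases of this window hold the match and are printed for that reason (RefSeq, TAIR10.1, chr3:68766-68915, minus strand), with the element, which begins 246 bases upstream of the start on the opposite strand, in capitals.
AT3G01190: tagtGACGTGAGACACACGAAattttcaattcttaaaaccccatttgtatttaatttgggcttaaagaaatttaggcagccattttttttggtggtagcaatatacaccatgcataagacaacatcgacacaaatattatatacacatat
No match in RHS19, AT4G26010 or AT1G05240 says only that these letters are not in this window.

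Markers of root hairs outside the family moved with these members. The expansins EXPA7 and EXPA18, the wall proteins LRX1 and PRP3, MRH6 and RHS10, 6 of 7 listed, summed to 138 to 144 CPM in untreated libraries, 18.7 to 29.4 at 10 µM, 11.4 to 13 at 100 µM and 1.05 to 2.96 at 400 µM. All 6 were lower at 100 and 400 µM (against 4.22% and 6.43% of all genes), with a median log2 fold change of -5.99 at 400 µM. EXPA7 and EXPA18 had 1 read each at 400 µM, so the size of that median is uncertain. MRH6 and RHS10, with at most 5 reads over any treated group, entered the table through the untreated libraries alone, which partly sets their direction. MRH6 and RHS10 had no read at 100 µM, and MRH6 and LRX1 none at 400 µM. The part of root hair RNA in the falls of the peroxidases was not tested.

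Another 3 members fell at all 3 doses. AT2G37130, annotated in defence against fungi and in many organs, stood at 1190, 1220 and 1410 CPM at 0 µM, 576, 835 and 591 at 10 µM, 438, 494 and 540 at 100 µM, and 398, 353 and 377 at 400 µM. Treated and untreated libraries did not overlap at any dose. Its log2 fold changes were -0.93 (SE 0.15), -1.38 (SE 0.15) and -1.76 (SE 0.15), with adjusted p of 0.000457, 1.67e-06 and 6.16e-08 in edgeR's quasi-likelihood test. The fall at 10 µM was under 2-fold and was not called with a minimum fold of 2. AT5G17820, a target of UPB1, the factor that sets the border between dividing and elongating root cells, had 153, 141 and 140 CPM at 0 µM, 33.8, 76.3 and 58.4 at 10 µM, 34, 39.1 and 42.5 at 100 µM, and 8.36, 11 and 10.6 at 400 µM. Each dose lay below the untreated range and 400 µM also below the range at 100 µM. This gave log2 fold changes of -1.36 (SE 0.21), -1.91 (SE 0.22) and -3.85 (SE 0.26) and adjusted p of 0.000478, 4.42e-06 and 2.8e-09.

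AT1G30870, annotated in root, had the largest fall at 400 µM among members read at that dose and called. It stood at 52.9, 40.2 and 59.5 CPM at 0 µM, 12.3, 16.8 and 9.84 at 10 µM, 1.79, 4.51 and 3.82 at 100 µM, and 2.09, 1.57 and 0 at 400 µM, or 395 reads untreated and 7 at 400 µM. The 10 µM and 100 µM libraries did not overlap either. Log2 fold changes were -1.92 (SE 0.30), -3.95 (SE 0.37) and -5.41 (SE 0.45), with adjusted p of 0.000449, 3.04e-07 and 4.37e-08 in edgeR's quasi-likelihood test. The plot of levels in each library shows these members beside the rising ones.

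**Figure D3:**
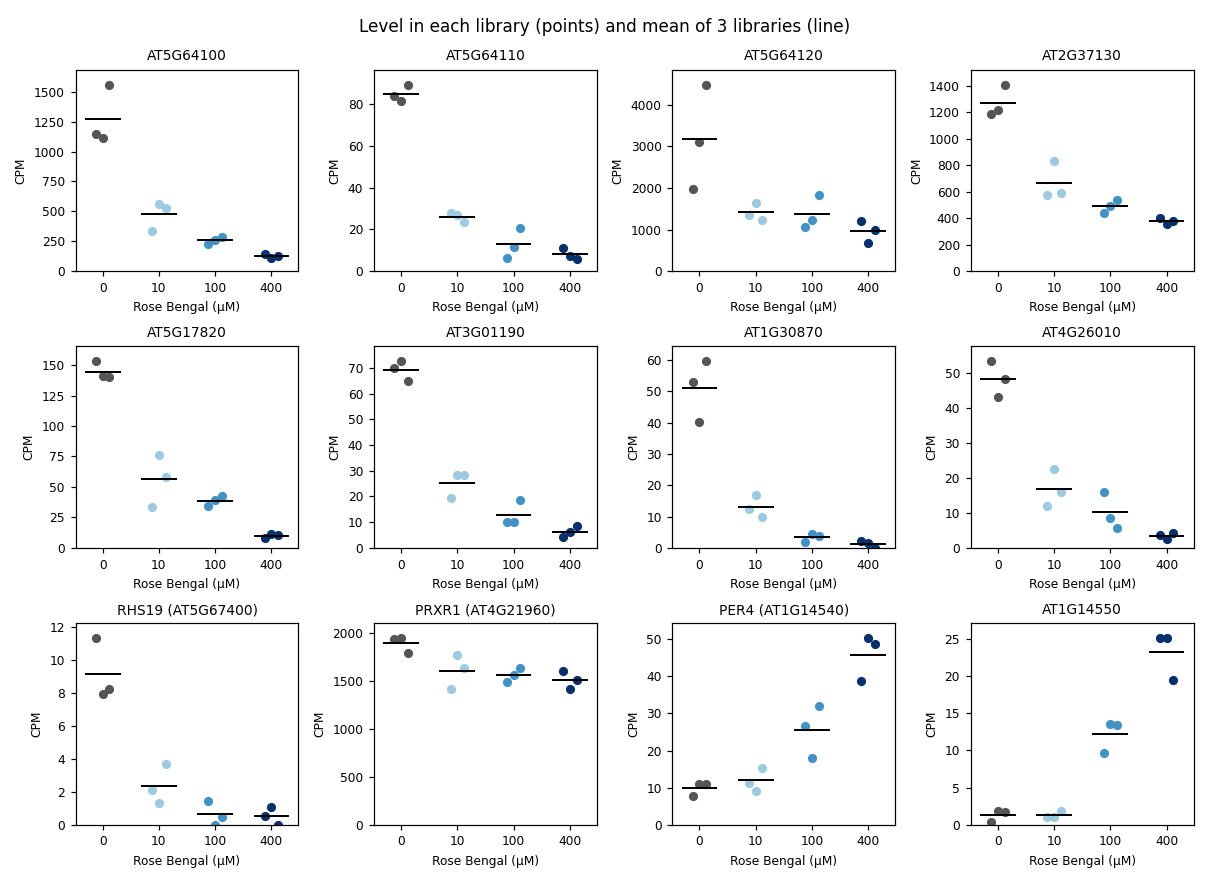
CPM in each of the 3 libraries of a dose (points) and their mean (line) for 12 class III peroxidases (y axes from 0, scaled to each gene) at Rose Bengal 0, 10, 100 and 400 µM (x axis). The first 9 panels fall with dose, PRXR1 stays between 1420 and 1950 CPM, and PER4 and AT1G14550 are highest at 400 µM, with 38.7 to 50.3 and 19.5 to 25.1 CPM.

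Peroxidases of the Casparian strip had a median log2 fold change of -1.08 at 400 µM, beside -3.74 for the 5 of root hair growth, a difference that was not tested. Of the 5 that together polymerise its lignin, 3 fell at 400 µM (60%, against 6.43% of all genes) and 1 of them also at 100 µM (20%, against 4.22%). None was called at 10 µM (1.07% of all genes were lower), where 2 had an unadjusted p under 0.05 and DESeq2 called 0. PER64 (AT5G42180), which sits at the strip, stood at 24.6, 19.9 and 21.7 CPM at 0 µM, 10.6, 18.4 and 14.8 at 10 µM, 15, 10 and 9.07 at 100 µM, and 6.79, 8.38 and 9.31 at 400 µM. Its log2 fold changes were -0.59 (SE 0.25), -0.93 (SE 0.26) and -1.42 (SE 0.28), with adjusted p of 0.28, 0.0251 and 0.00118 in edgeR's quasi-likelihood test, and treated and untreated libraries did not overlap. The call at 100 µM was lost without library 1 or 3 at 0 µM, or library 2 or 3 at 100 µM (adjusted p = 0.101, 0.0673, 0.0904 and 0.123). It was also lost with a minimum fold of 2.

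RCI3 (AT1G05260), first described as a cold-inducible gene, had 43.6, 26 and 46 CPM at 0 µM, 31, 38 and 31.4 at 10 µM, 21.5, 25.5 and 37.2 at 100 µM, and 17.2, 22.5 and 14.8 at 400 µM. The 400 µM libraries alone lay below the untreated range. Its log2 fold change there was -1.08 (SE 0.26), with an adjusted p of 0.00616 in edgeR's quasi-likelihood test. AT4G11290, also a target of UPB1, stood at 55.7, 38.9 and 49.5 CPM at 0 µM, 38.4, 36.7 and 32 at 10 µM, 35.8, 29.5 and 44.9 at 100 µM, and 24.6, 24.1 and 25.8 at 400 µM. Its libraries at 10 and 400 µM lay below the untreated range. At 400 µM the log2 fold change was -0.95 (SE 0.20, adjusted p = 0.00193), a fall under 2-fold that was not called with a minimum fold of 2. The other members of the set, AT1G44970 and PRX72 (AT5G66390), had log2 fold changes of -1.57 (SE 0.62) and -0.09 (SE 0.31) at 400 µM and adjusted p of 0.103 and 0.897.

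Markers of the endodermis were still read at each dose. CASP1, CASP2 and ESB1, 3 of 5 listed, summed to 102 to 164 CPM untreated, 95.1 to 114 at 10 µM, 87.6 to 103 at 100 µM and 61.4 to 85.2 at 400 µM, and none was at 0. Of the 3, CASP1 and ESB1 were lower at 400 µM. The part of endodermal RNA in the falls of these peroxidases was not tested.

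Of the further members that fell at 100 and 400 µM, AT4G30170, annotated in hypocotyl and root, stood at 219, 168 and 162 CPM at 0 µM, 83.1, 124 and 124 at 10 µM, 54.7, 83.1 and 90.2 at 100 µM, and 60.6, 33 and 44 at 400 µM. Treated libraries lay below untreated ones at each dose, with log2 fold changes of -0.74 (SE 0.22), -1.27 (SE 0.22) and -2.00 (SE 0.23) and adjusted p of 0.073, 5e-04 and 3.58e-06 in edgeR's quasi-likelihood test. At 10 µM it was called without library 1 at 100 µM (adjusted p = 0.0267), in DESeq2 (0.0363) and in a fit of the compared groups alone (0.04). AT3G03670 had 21, 12.7 and 14.3 CPM at 0 µM, 4.93, 8.39 and 8 at 10 µM, 3.93, 1.5 and 5.73 at 100 µM, and 1.57, 0.524 and 2.12 at 400 µM. Again no treated library reached the untreated range, and log2 fold changes were -1.16 (SE 0.37), -2.07 (SE 0.41) and -3.42 (SE 0.49) with adjusted p of 0.104, 0.00162 and 4.14e-05.

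AT4G37520 and AT4G37530 are neighbours with coding sequences 92.5% identical, although their last 300 bases matched at only 79.8% at most. AT4G37530 stood at 93.3, 137 and 139 CPM at 0 µM, 96.2, 84.5 and 64 at 10 µM, 69.4, 57.1 and 52.5 at 100 µM, and 47, 51.9 and 50.8 at 400 µM. The ranges at 100 and 400 µM were below the untreated one, and that at 10 µM overlapped it. For AT4G37530 log2 fold changes were -0.58 (SE 0.18), -1.04 (SE 0.19) and -1.30 (SE 0.19), with adjusted p of 0.0954, 0.000641 and 5.58e-05 in edgeR's quasi-likelihood test. AT4G37520, with more reads, had 600, 834 and 881 CPM at 0 µM, 468, 607 and 456 at 10 µM, 448, 489 and 610 at 100 µM, and 469, 352 and 517 at 400 µM. Its ranges overlapped at 10 and 100 µM and were apart at 400 µM, with log2 fold changes of -0.59 (SE 0.18), -0.58 (SE 0.18) and -0.79 (SE 0.18) and adjusted p of 0.0735, 0.0369 and 0.00366. The call of AT4G37520 at 100 µM was lost without library 2 or 3 at 0 µM, or library 1 or 2 at 100 µM (adjusted p = 0.134, 0.132, 0.0925 and 0.086). Its falls at 100 and 400 µM were under 2-fold and were not called with a minimum fold of 2. At 10 µM AT4G37520 was called in DESeq2 (0.04) and without library 1 at 0 µM, library 2 at 10 µM, or library 1 at 100 µM (0.0303, 0.0241 and 0.0464). AT4G37530 was called there without library 1 at 0 µM (0.0322).

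Besides RCI3 and AT4G11290, 3 members fell at 400 µM alone. AT1G49570 stood at 130, 114 and 139 CPM at 0 µM, 93, 95.8 and 109 at 10 µM, 76.6, 92.1 and 113 at 100 µM, and 80, 75.4 and 59.3 at 400 µM. All treated libraries lay below the untreated range. Its log2 fold change at 400 µM was -0.84 (SE 0.17, adjusted p = 0.00147) in edgeR's quasi-likelihood test, a fall under 2-fold that was not called with a minimum fold of 2. At 100 µM the log2 fold change was -0.45 (SE 0.17, adjusted p = 0.0981). The adjusted p at 100 µM was 0.0446 without library 3 at 100 µM and 0.0189 with library totals. AT2G38380, annotated with the response to zinc and salt, had 45.2, 60.5 and 72.5 CPM at 0 µM, 65.9, 61.9 and 51.7 at 10 µM, 47.2, 28 and 50.1 at 100 µM, and 30.3, 38.2 and 34.3 at 400 µM. The 400 µM range alone was clear of the untreated one.

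The log2 fold change of AT2G38380 at 400 µM was -0.79 (SE 0.22, adjusted p = 0.018), and the call was lost without library 2 or 3 at 0 µM, or library 1 or 3 at 400 µM (0.0538, 0.113, 0.0897 and 0.0613, edgeR's quasi-likelihood test). AT2G38380 fell by less than 2-fold and was not called with a minimum fold of 2. Its neighbour AT2G38390, 90.6% identical in coding sequence, had 8 to 11 reads a dose and was not called, with a log2 fold change of 0.76 (SE 0.89) at 400 µM. AT2G18980 stood at 10.9, 13 and 6.95 CPM at 0 µM, 2.47, 11 and 7.38 at 10 µM, 2.86, 9.51 and 6.2 at 100 µM, and 4.7, 1.05 and 3.39 at 400 µM, and the 400 µM libraries alone lay below the untreated range. At 400 µM it was called with a log2 fold change of -1.74 (SE 0.56, adjusted p = 0.0402) but not without library 1 or 2 at 0 µM, or library 2 or 3 at 400 µM (0.0933, 0.146, 0.164 and 0.098).

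The rising members were led by 2 neighbours on chromosome 1, PER4 (AT1G14540) and AT1G14550, transcribed away from each other. PER4, often used as a marker of immune responses to microbial patterns, stood at 7.67, 11.1 and 10.9 CPM at 0 µM, 11.3, 9.18 and 15.4 at 10 µM, 26.5, 18 and 32 at 100 µM, and 38.7, 50.3 and 48.7 at 400 µM. The libraries at 100 and 400 µM were all above the untreated ones, and those at 10 µM overlapped with them. Its log2 fold changes were 0.22 (SE 0.28), 1.36 (SE 0.26) and 2.21 (SE 0.25), with adjusted p of 0.813, 0.00109 and 2.69e-06 in edgeR's quasi-likelihood test. AT1G14550, annotated in root, had 0.404, 1.9 and 1.74 CPM at 0 µM, 1.06, 1.05 and 1.85 at 10 µM, 9.66, 13.5 and 13.4 at 100 µM, and 25.1, 25.1 and 19.5 at 400 µM. It went from 11 and 10 reads at 0 and 10 µM to 82 and 142, with no overlap at the higher doses. The log2 fold changes of AT1G14550 were -0.16 (SE 0.55), 3.09 (SE 0.40) and 4.02 (SE 0.39), with adjusted p of 0.947, 2.02e-05 and 2.8e-07. Both genes held their calls at 100 and 400 µM under every alternative tried, including without each library in turn.

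The coding sequences of PER4 and AT1G14550 were 73.8% identical over 902 aligned bases, and the last 300 bases of neither matched another gene over 50 bases or more, so their reads can be told apart. Their upstream sequences are shown since both rose at 100 and 400 µM (RefSeq, TAIR10.1, chr1:4975706-4975955, minus strand, for PER4 and chr1:4978672-4978921, plus strand, for AT1G14550, 250 bases each). Capitals mark the W-box.
PER4: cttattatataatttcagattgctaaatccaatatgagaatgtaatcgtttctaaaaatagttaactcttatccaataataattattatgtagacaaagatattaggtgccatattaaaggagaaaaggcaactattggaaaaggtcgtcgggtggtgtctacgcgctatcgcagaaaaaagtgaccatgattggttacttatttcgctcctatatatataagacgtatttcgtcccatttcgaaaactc
AT1G14550: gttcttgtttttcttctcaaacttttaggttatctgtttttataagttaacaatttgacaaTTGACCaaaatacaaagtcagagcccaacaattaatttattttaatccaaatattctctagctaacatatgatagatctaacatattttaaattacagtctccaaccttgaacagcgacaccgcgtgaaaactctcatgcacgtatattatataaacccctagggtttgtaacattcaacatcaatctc
AT1G14550 holds 1 W-box, which begins 189 bases upstream of its start, and the window of PER4 holds none.

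The third rising member, AT4G33420, was read little, with 11 reads untreated and 34 at 400 µM. It stood at 0.807, 1.58 and 1.74 CPM at 0 µM, 3.87, 1.05 and 1.85 at 10 µM, 3.22, 1.5 and 2.86 at 100 µM, and 7.84, 6.81 and 2.54 at 400 µM. At 400 µM the ranges did not overlap, with a log2 fold change of 1.99 (SE 0.62) and an adjusted p of 0.0349 in edgeR's quasi-likelihood test. This call was lost without any 1 of the 3 untreated libraries (0.123, 0.0829 and 0.0692), without library 1 or 2 at 400 µM (0.148 and 0.108), without the 3 libraries that stood apart (0.0728), and in DESeq2 (0.0522).

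Among the 24 members not called was PRXR1 (AT4G21960), which with AT5G64120 held most reads. It stood at 1940, 1950 and 1800 CPM at 0 µM, 1420, 1770 and 1640 at 10 µM, 1490, 1570 and 1640 at 100 µM, and 1610, 1420 and 1510 at 400 µM. Although each treated library lay below each untreated one, the log2 fold change at 400 µM was -0.33 (SE 0.12, adjusted p = 0.0703) in edgeR's quasi-likelihood test. It was called lower at 400 µM with DESeq2 (0.0306), with a stricter filter (0.0473), with library totals (0.00891), in a fit of the compared groups alone (0.0297) and without library 2 at 10 µM (0.0419). PRXCB (AT3G49120), which takes part in the apoplastic oxidative burst, had 20.6, 21.8 and 25.2 CPM at 0 µM, 44.7, 13.9 and 6.77 at 10 µM, 7.15, 6.51 and 12.4 at 100 µM, and 8.36, 9.95 and 8.47 at 400 µM. The libraries at 10 µM ran from below to above the untreated range, while those at 100 and 400 µM lay below it.

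PRXCB had log2 fold changes of -0.003 (SE 0.42), -1.38 (SE 0.46) and -1.33 (SE 0.46) and adjusted p of 1, 0.0609 and 0.0599 in edgeR's quasi-likelihood test, and 0.0425 in the F test over the 4 doses. When the fit held the 2 groups compared alone, without the 10 µM libraries, it was called lower at 100 µM (0.00341) and 400 µM (0.000228). Without library 1, 2 or 3 at 10 µM it was called at 100 µM (0.00243, 0.0403 and 0.0174) and at 400 µM (0.00272, 0.0446 and 0.0179), and at 400 µM also without library 1 at 100 µM (0.0489). In DESeq2 it was called lower at both doses (0.0343 and 0.0439).

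AT5G39580, a partner of AT5G64100 in root hair growth at low temperature, had 10.1, 24.7 and 13.9 CPM at 0 µM, 62, 39.1 and 19.1 at 10 µM, 40.8, 8.01 and 14.8 at 100 µM, and 12.5, 31.4 and 18.2 at 400 µM. Replicates of a dose differed several-fold, and all ranges overlapped with the untreated one. AT5G39580 had log2 fold changes of 1.31 (SE 0.47), 0.41 (SE 0.49) and 0.32 (SE 0.50), with adjusted p of 0.162, 0.686 and 0.75 in edgeR's quasi-likelihood test, and without library 1 at 100 µM it was called higher at 10 µM (0.0454). Of 3 members with a known part in lignin, PRX71 (AT5G64120) fell, while PRX25 (AT2G41480) and PRX52 (AT5G05340) had log2 fold changes of 0.89 (SE 0.47) and 0.43 (SE 0.37) at 400 µM and were not called. Prx37 (AT4G08770) stood at 6.86, 5.7 and 10.9 CPM untreated and 13.6, 14.7 and 16.1 at 400 µM, ranges that did not overlap, with an adjusted p of 0.142. Its end is 94.8% identical to that of AT4G08780 over 135 bases, and AT4G08780 was not analysed here.

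Low members filled much of the rest. AT2G39040 went from 19 reads untreated to 1 at 400 µM, with an adjusted p of 0.054 in edgeR's quasi-likelihood test, and a 95% counting interval of 2.35 to 615 for the ratio of untreated to treated. As with AT5G15180, it entered the table through the untreated libraries alone, which partly sets the direction of both. AT5G15180, AT5G40150 and AT3G32980 had treated libraries at 400 µM all below the untreated ones and adjusted p of 0.222, 0.13 and 0.0606. AT4G36430 and AT3G28200, at 71.2 and 53.7 CPM untreated, differed least at 400 µM, with log2 fold changes of 0.06 (SE 0.20) and -0.05 (SE 0.20). The other 9 (AT5G19890, AT3G21770, AT1G68850, AT1G71695, AT2G18150, AT5G14130, AT2G34060, AT5G19880 and AT4G25980) had log2 fold changes from -2.26 in AT5G19890 to 1.27 in AT4G25980 at 400 µM, with adjusted p of 0.173 to 0.738. The value of AT5G19890 rests on 14 reads untreated and 2 treated, with a 95% counting interval of 1.25 to 49.4 for the ratio. The coding sequence of AT2G18150 is 91.7% identical over 1017 bases to that of its neighbour AT2G18140, not analysed here, and how reads that fit both were divided is not given in the sources used here. For members with few reads, no call means that a difference was not detectable at this depth.

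Annotated organs and levels of change were set side by side after values were seen. In RefSeq's notes 11 members are expressed in root, root hair or hypocotyl alone, with a median log2 fold change of -2.00 at 400 µM. Of these, 6 fell (54.5%, against 6.43% of all genes) and 1 rose (9.09%, against 9.11%). Of 33 members annotated in other or more organs, 12 fell (36.4%) and 2 rose (6.06%), with a median of -0.84. The remaining 4 have no organ in the notes, and 3 of these fell (75%). The heat shock element GAANNTTC, bound by heat stress factors, was in the upstream 250 bases of 3 members (6.25%, against 9.44% of all genes): AT1G30870, PRXR1 and AT5G19880.

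Between neighbouring doses, 4 members were lower at 100 than at 10 µM (8.33%, against 1.5% of all genes) and 2 were higher (4.17%, against 2.98%). The falls were those of AT1G30870 (log2 fold change -2.03, adjusted p = 0.00751 in edgeR's quasi-likelihood test), AT5G64100 (-0.88, 0.00994), AT3G01190 (-0.98, 0.0379) and AT5G64110 (-1.07, 0.0429). Those of AT5G64100 and AT3G01190 were under 2-fold and were not called with a minimum fold of 2. The rises were those of AT1G14550 (3.25, 0.000148) and PER4 (1.15, 0.0155). The call of PER4 was lost without library 1 or 2 at 10 µM, or library 3 at 100 µM (0.0526, 0.0664 and 0.0918). That of AT3G01190 held without library 1 at 10 µM, library 3 at 100 µM, or library 1 or 3 at 400 µM, and was lost without each of the other 8 libraries (0.0505 to 0.14). That of AT5G64110 held without library 3 at 100 µM, or library 1 or 3 at 400 µM, and was lost without each of the other 9 (0.053 to 0.12). With 1 library left out the count of lower members was 2 to 4. In a fit of the compared groups alone, edgeR's quasi-likelihood test did not call PER4, AT5G64100, AT3G01190 or AT5G64110 (adjusted p = 0.12, 0.0568, 0.154 and 0.176).

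From 100 to 400 µM, 1 member was lower (2.08%, against 0.0301% of all genes) and 0 were higher (0.015% of all genes), where 2 were higher at an unadjusted p under 0.05 and 0 in DESeq2. The member was AT5G17820 (log2 fold change -1.93, SE 0.27, adjusted p = 0.0148 in edgeR's quasi-likelihood test), and the call was lost without library 2 or 3 at 100 µM, or library 1 or 3 at 400 µM (0.0612, 0.056, 0.103 and 0.152). AT5G64100, at -1.02 and an adjusted p of 0.0501, was at the threshold, and was called without library 1 or 2 at 10 µM, or library 1 at 100 µM (0.00779, 0.0441 and 0.013). It was also called in DESeq2 (0.000414) and in a fit of the compared groups alone (0.0123). For the members called at 400 µM and not at 100 µM, a difference between those doses was not shown.

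Other genes of reactive oxygen and lignin metabolism were followed beside the family. Of 7 RBOH oxidases in the table, the plasma membrane enzymes that make superoxide, 2 were higher at 100 µM (28.6%, against 7.32% of all genes). At 400 µM 1 was higher (14.3%, against 9.11%), and 0 were lower at either dose, also at an unadjusted p under 0.05. RBOHD, the main enzyme of the defence burst, rose from a mean of 140 CPM to 253, 498 and 623 CPM at the 3 doses, with a log2 fold change of 2.15 at 400 µM (adjusted p = 3.39e-07 in edgeR's quasi-likelihood test). Of 18 genes of monolignol synthesis, 6 were higher (33.3%, against 9.11% of all genes) and 1 lower (5.56%, against 6.43%) at 400 µM. CCR2, a cinnamoyl-CoA reductase of defence, rose by 3.48 on the log2 scale (adjusted p = 8.98e-11), from a mean of 15.9 to 180 CPM. PAL1 and PAL2, which begin the pathway, rose by 1.00 and 1.29, while CAD4, which makes the alcohols that peroxidases oxidise, fell by 1.11. CAD5, of the same list, was higher in untreated seedlings, at a mean of 305 CPM against 127 CPM for CAD4. It was not called at 400 µM (log2 fold change -0.12, adjusted p = 0.696 in edgeR's quasi-likelihood test).

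Laccases, copper enzymes that also oxidise monolignols, moved both ways at 400 µM. Of 11, 2 were higher (18.2%, against 9.11% of all genes) and 2 lower (18.2%, against 6.43%). Whether these lists differ from the shares over all genes was not tested. LAC7 went from a mean of 88.8 CPM to 30.1, 15.6 and 6.76 CPM, with a log2 fold change of -3.70 (adjusted p = 1.32e-08 in edgeR's quasi-likelihood test), and LAC3 had -1.64. LAC1 and LAC8 rose by 2.78 and 1.52. Medians at 400 µM were 0.38 for the RBOH oxidases, -0.13 for monolignol synthesis and 0.04 for laccases, beside -1.01 for the peroxidases and -0.04 for all genes. Of 9 listed regulators of peroxidase and root hair genes 3 were in the table, RHD6, RSL2 and MYB15, and 0 were called at 400 µM, with 1 at an unadjusted p under 0.05. RSL2, a root hair factor, stood at a mean of 2.24 CPM untreated and 0.348 CPM at 400 µM, which is 17 reads and 2. RSL2 entered the table through the untreated libraries alone, which partly sets its direction. It was not called (adjusted p = 0.115 in edgeR's quasi-likelihood test), and with so few reads the size of the difference is uncertain.

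**Figure D4:**
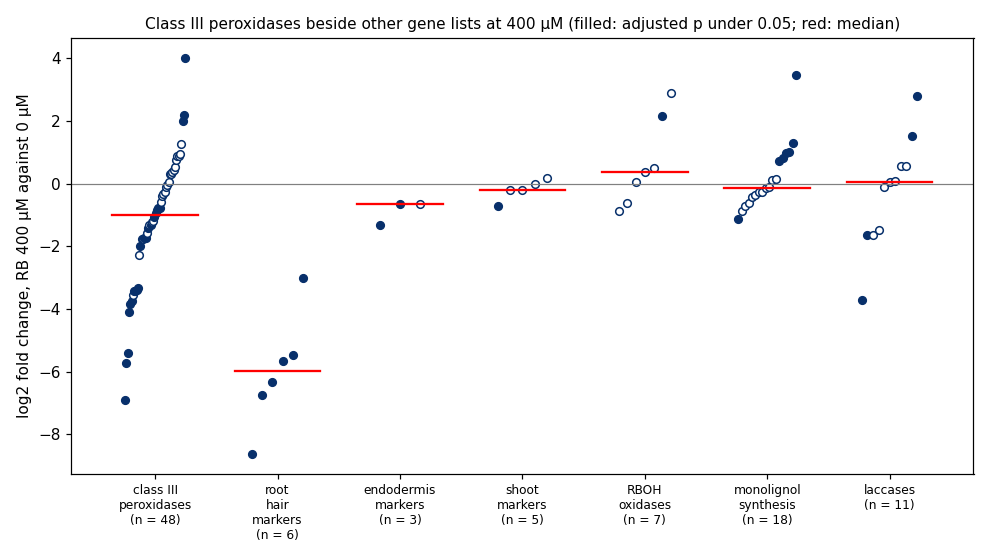
Log2 fold change at RB 400 µM against 0 µM (y axis) of each gene (points) of the class III peroxidases and 6 other lists (x axis, n genes in the table), with the median of each list as a red line. Filled points have an adjusted p under 0.05 in edgeR's quasi-likelihood test. The 6 root hair markers lie lowest (median -5.99, resting on few or no reads at 400 µM). The peroxidases spread from -6.92 to 4.02 (median -1.01), and the medians of monolignol synthesis and laccases lie near 0.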

How the data were processed

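RNA was measured in 12 MARS-seq libraries of whole seedlings, grouped by the RB dose in their labels. Per the study's methods, reads were trimmed (cutadapt), mapped to Araport 11 (STAR) and assigned to genes (HTSeq-count) by the authors. Versions given in the submitters' processing notes are 2.17.1.14 for bcl2fastq and 1.8.3 for cutadapt. The values used here are the deposited raw counts of reads. They cover genes that passed a minimum of more than 5 reads in some sample, and molecular identifiers were not used, so PCR duplicates remain and intervals and floors describe counting error alone. The authors also deposited a normalized signal, which is the counts over a DESeq2 size factor, and regularized log2 values from DESeq2. Neither was used.

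Members and gene lists were chosen with earlier results of these data known. A further endodermis marker is not reported here and enters no sum or count of the list. For all 13307 genes, 1 model over the 12 libraries was fitted with edgeR 4.0.16 under R 4.3.3 (TMM factors, glmQLFit, glmQLFTest, two-sided), p-values were adjusted by Benjamini-Hochberg over all genes, and a call needed an adjusted p under 0.05. The study used DESeq2, which was an alternative here (version 1.42.0). The standard error (SE) was the log2 fold change over the root of F, without sign. Where a group had 0 reads of a member, 3 counts served as its floor, and ratios of members resting on 1 to 3 reads carry a 95% counting interval. Named members were those called in any comparison, the 6 with most reads, neighbours of called members and those of the role lists, with others chosen after their values were seen. Names, organ notes and the 250 bases upstream of each start came from RefSeq (TAIR10.1, with 13214 identifiers matched and 13022 upstream windows), and matches between the last 300 bases from blastn. The script was tested on simulated data. Alternatives were other scalings, a stricter filter, DESeq2, a fit of the compared groups alone, a block by replicate number, leaving out libraries and a minimum fold of 2.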

Additional observations from a re-analysis of the deposited data

How the results depend on the processing

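Over 20 alternatives, no call of a named member reversed. Of 57 calls of the 32 named members, 38 held under all alternatives and 19 were lost under some, and of 103 results not called 16 were called under some. Counts at each dose against 0 µM stayed within 1.5 times of the main counts, with the exception that 0 to 1 members were higher at 10 µM when 1 library was left out. From 10 to 100 µM, 2 members were higher (1 with only the groups compared, 1 to 2 with 1 library left out) and 4 were lower (1 with only the groups compared, 2 with a minimum fold of 2, 2 to 4 with 1 library left out). From 100 to 400 µM, 1 was lower, against 2 with library totals, 2 with DESeq2, 2 with only the groups compared, 2 with the replicate block, 2 without the 3 libraries that stood apart, and 0 to 2 with 1 library left out. The cause was not tested. The replicate number is not shown to pair the libraries. Deviations of same-numbered libraries correlated at -0.36 to 0.42 over 6904 genes (others at -0.33 to 0.40), 4 of 12 libraries correlated best with their own number, and among the named members the block changed the call of AT5G64100 from 100 to 400 µM alone (adjusted p = 0.0438 in edgeR's quasi-likelihood test).

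With library totals the median of all genes at 400 µM was -0.15 in place of -0.04, the split of all genes called was 1030 higher and 1183 lower in place of 1212 and 856, and PRXR1 was called lower. At 100 µM that split was 816 and 836 in place of 974 and 561, and from 10 to 100 µM 225 and 348 in place of 396 and 199. Depth limits the 17 members under 10 CPM, for which a missing call does not show that the level was steady.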
